A study of Glycine max with 46 samples.

Results

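The roots of flooded soybean (Glycine max) seedlings were compared with the roots of unflooded plants in 4 messenger RNA libraries, out of 46 in the series. The libraries were chosen from their tissue labels alone: 2 hold roots of 5-day greenhouse seedlings flooded for 12 h or 24 h, and 2 hold young roots of greenhouse plants aged 4 weeks that no label describes as flooded. The flooded seedlings were of the Williams line W43, with 1 library per time. One unflooded library came from W54, which the labels describe as the same line as W43, and the other from W55, a Williams mutant with a 138 kb deletion at the I locus. The genotype of W43 and W54 is given as i-i RT w1, with a yellow seed coat and black hilum, and that of W55 as iRT w1, with a black coat. The series as a whole concerns the small RNAs that silence chalcone synthase in soybean seed coats, and the root libraries are tissues beside that main theme. Age differs between the sides by design, and no unflooded 5-day roots were analysed here, so flooding and plant age cannot be told apart. The labels do not say whether roots of several plants were pooled or whether the libraries came from separate growings, so p-values measure only the spread between these libraries. Within a side that spread includes the 2 flooding times or the 2 lines, since each time and each line has 1 library.

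Waterlogged soil holds little oxygen, and root cells under low oxygen cannot keep mitochondrial respiration running at its usual rate. Plants then draw energy from glycolysis and recycle its cofactor by fermentation, in which pyruvate decarboxylase and alcohol dehydrogenase turn pyruvate into ethanol. In Arabidopsis the genes for these enzymes are switched on by ethylene response factors of group VII, whose stability is set by oxygen through plant cysteine oxidases, and the gas hormone ethylene builds up in submerged tissue. Genes are named here by the best Arabidopsis match in the authors' table, so a name such as alcohol dehydrogenase 1 means a soybean gene whose closest Arabidopsis match has that name, and roles are those known in Arabidopsis unless another plant is named.

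Values are RPKM, reads scaled to the length of the cDNA and to the alignments of the library, so levels of different genes can be set side by side, and differences are flooded minus unflooded on the log2(RPKM + 1) scale with a standard error (SE) after the ± sign. The 2 flooded libraries held 191.5 M and 175.1 M alignments and the unflooded ones 247.7 M and 247.4 M. Among 31522 genes that averaged 1 RPKM or more over the 4 libraries, limma called 14549 (46.2%) different at an adjusted p under 0.05, with 7394 (23.5%) higher and 7155 (22.7%) lower in flooded roots, against 17673 at an unadjusted p under 0.05. The shares of 23.5% and 22.7% are the background for the counts of every list below. Among the calls, 836 were higher and 755 lower by more than 4-fold, and the median difference over all genes was −0.01. The ranges of the sides lay apart, with flooded higher in 39.2% of genes and lower in 39.7%. The 2 flooded libraries differed from each other by a root mean square of 0.53 log2 units, W54 and W55 by 0.28, and libraries of opposite sides by 1.01 to 1.14. Leaving out W54 left 908 calls and leaving out W55 left 1518, so the number of calls rests on having both unflooded libraries. In 1 or both of these fits the calls within each list described below also fell by more than 1.5 times, except in the haemoglobin list and its haemoglobin 2 genes. With 2 libraries a side, an exact permutation test of a single gene cannot go below p = 0.333, and the calls draw on the spread pooled over all genes. In these whole-organ libraries fewer cells of a type and less RNA per cell cannot be told apart.

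A mark in the column headers of the deposited table runs with the flooding. Both flooded libraries and 4 others, of seed coat and flower, carry a tag of the letters RNASeq and a number in their header, and the unflooded roots do not. The labels do not say what the tag means. Outside roots, 734 genes lay higher in all 4 tagged libraries than in all 30 untagged ones, and the tissues on the 2 sides of that split differ as well. The median level of these genes, as log2(RPKM + 1), was 0.894 and 0.918 in the flooded roots, 0.863 to 0.976 in the 4 other tagged libraries, 0.054 and 0.056 in the unflooded roots and 0 to 0.097 in the untagged rest. Of the 265 that were tested in roots, 211 (79.6%) were called higher in flooded roots and 9 lower. They make up 2.85% of all higher calls and their cDNA was short, with a median of 563.5 bases against 1746 for all genes tested. The tag and the flooding cannot be told apart in the roots. A fit over all libraries of the table with the tag as a term, added after the data were seen, called 8456 genes (26.8%), 3981 (12.6%) higher and 4475 (14.2%) lower. It kept 6842 of the root calls, and 974 of the root calls had the opposite sign in it. Only the Richland and T157 seed coats held tagged and untagged libraries within 1 group, so they alone set the tag term. In both, the tagged library is from seeds of 50 to 100 mg. The untagged ones are from seeds of 10 to 25, 300 to 400 and 400 to 500 mg. The tag and the coat stage therefore cannot be told apart in that term. Values from this fit are called tag-adjusted below and are given where a named gene's call was lost in it.

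**Figure D1:**
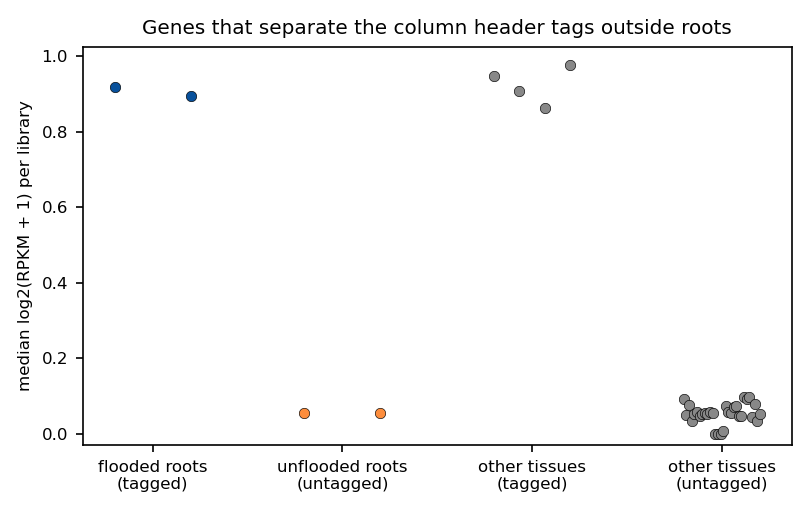
Median log2(RPKM + 1), per library, of the 734 genes that separate tagged from untagged column headers outside roots; each point is 1 library, blue for flooded and orange for unflooded roots. The 2 flooded root libraries lie at 0.894 and 0.918, among the tagged libraries of other tissues, and the unflooded ones at 0.054 and 0.056, among the untagged.

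The tissue label was compared with marker lists, and the 2 broad root lists did not set the roots apart. Root hair and root surface genes summed to 961 and 969 RPKM in the 12 h and 24 h roots and to 799 and 689 RPKM in W54 and W55, against 159 to 2664 RPKM in other tissues, with the flower highest. Casparian strip and endodermis genes summed to 241 to 270 RPKM in roots, against 37.1 to 318 RPKM elsewhere. A narrower list, of genes described as root hair specific, was picked after its values were seen and is given as a description, not as a check of the label. It summed to 572 and 473 RPKM in the 12 h and 24 h roots and to 407 and 294 RPKM in W54 and W55, against 0.803 to 89.3 RPKM in the 34 libraries of other tissues. Genes of photosystems, light harvesting and Rubisco, markers of green shoot, summed to 555 and 866 RPKM in flooded and 123.0 and 136.9 RPKM in unflooded roots, against 39853 and 81157 RPKM in the 2 leaf libraries. Of 94 such genes tested, 79 were higher in flooded roots and 1 lower, with a median of 1.92, while the tag-adjusted fit called 6 higher and 2 lower. Of the whole list, 48.7% of genes reached 1 RPKM in both flooded libraries and 13.5% in both unflooded ones, and 3 and 10 genes read 0 in both. The sides did not overlap in the summed level, the flooded roots stayed far below leaf, and the part of shoot tissue in other results was not tested.

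**Figure D2:**
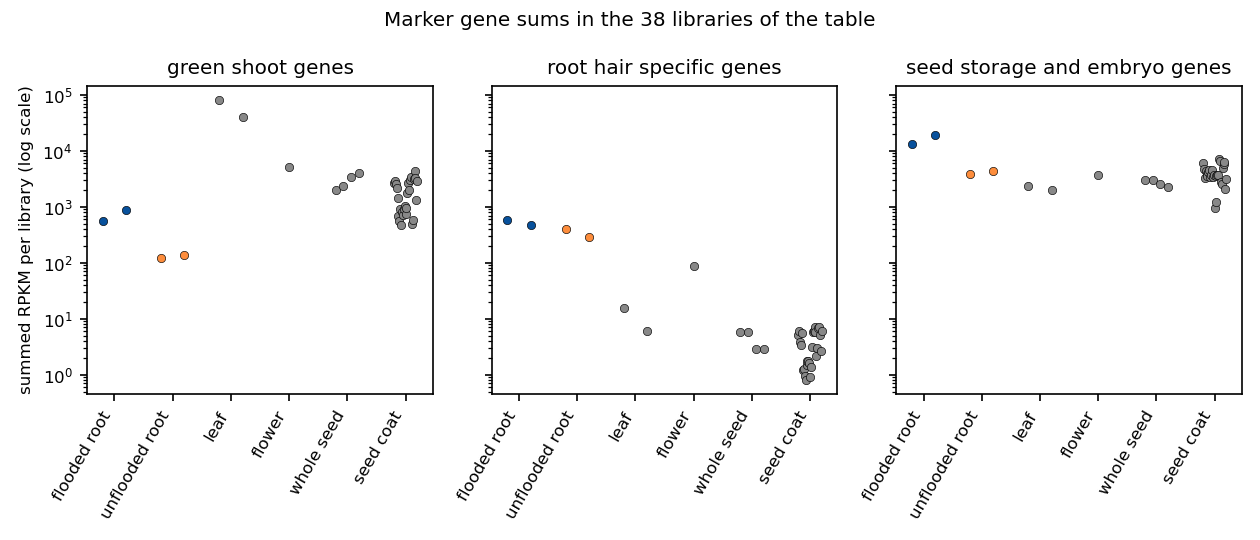
Summed RPKM of 3 marker lists in each of the 38 libraries of the table, on a log axis, with libraries grouped by tissue and each point 1 library. Root hair specific genes are at 294 to 572 RPKM in the 4 root libraries and at most 89.3 RPKM elsewhere. Green shoot genes are higher in flooded (555 and 866) than in unflooded roots (123.0 and 136.9). The seed storage and embryo list is highest in flooded roots (13046 and 18901) and lower in whole seed (2276 to 3050) than in unflooded roots (3785 and 4351).

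Fermentation genes were among the most raised. Of 15 tested genes for alcohol dehydrogenase 1 and pyruvate decarboxylase, 11 were higher in flooded roots, 2 lower and 2 not called, with a median log2 difference of 3.65, against 23.5% higher and 22.7% lower among all genes. Their summed level was 4236 RPKM at 12 h and 2261 RPKM at 24 h of flooding, and 265 and 370 RPKM in W54 and W55. All 4 tested alcohol dehydrogenase 1 genes, which make the enzyme that reduces acetaldehyde to ethanol, were called. Without W54 the list had 1 call and without W55 3, all higher, and in the tag-adjusted fit it had 10 higher and 0 lower.

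Glyma.14G121200, an alcohol dehydrogenase 1 gene, stood at 230 RPKM at 12 h and 117 RPKM at 24 h, and at 0.33 RPKM in W54 and 0.362 RPKM in W55. It went from barely detected to abundant, a 501-fold ratio of the means (log2 difference 6.94 ± 0.36, adjusted p = 0.00272). Glyma.04G213900 read 260 and 112 RPKM in flooded against 0.499 and 0.81 RPKM in unflooded roots, 284-fold (6.70 ± 0.45, adjusted p = 0.00324). Its level in the 34 libraries of other tissues reached at most 0.0523 RPKM, so among these libraries it was detected at more than trace level in roots only. Glyma.04G240800 and Glyma.06G122600, named after their values were seen, were already abundant without flooding. The first read 1694 and 926 RPKM flooded against 123 and 173 RPKM unflooded (8.86-fold, 3.10 ± 0.38, adjusted p = 0.00751). The second read 1297 and 736 RPKM against 96.3 and 136.1 RPKM (8.75-fold, 3.09 ± 0.36, adjusted p = 0.00704). In all 4 genes the 12 h library was the highest, the 24 h library came next, and both unflooded libraries lay below.

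The pyruvate decarboxylase genes, which feed acetaldehyde to that step, fell into the same kinds. Glyma.15G080800 read 50.4 and 22.3 RPKM in flooded roots and 0.0639 and 0.115 RPKM in unflooded ones, 406-fold (4.99 ± 0.41, adjusted p = 0.00408). The genes with some transcript in unflooded roots, named after their values were seen, rose from a higher base. Glyma.13G231700 read 222 and 104 RPKM against 6.68 and 12.3 RPKM (17.2-fold, 3.93 ± 0.49), Glyma.07G153100 184 and 97.3 RPKM against 5.4 and 8.66 RPKM (4.11 ± 0.41), and Glyma.18G204200 160 and 79.8 RPKM against 6.66 and 9.84 RPKM (14.5-fold, 3.65 ± 0.41). The 2 lower members carry the same description as the raised ones. Glyma.02G238800 read 5.69 and 5.79 RPKM flooded against 9.67 and 9.46 RPKM unflooded (−0.64 ± 0.11, adjusted p = 0.0145), and Glyma.14G207700 4.91 and 4.38 RPKM against 8.65 and 8.91 RPKM (−0.79 ± 0.12, adjusted p = 0.0113). In both the sides did not overlap, but their tag-adjusted differences of −0.44 and −0.58 were not called (adjusted p = 0.422 and 0.332).

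**Figure D3:**
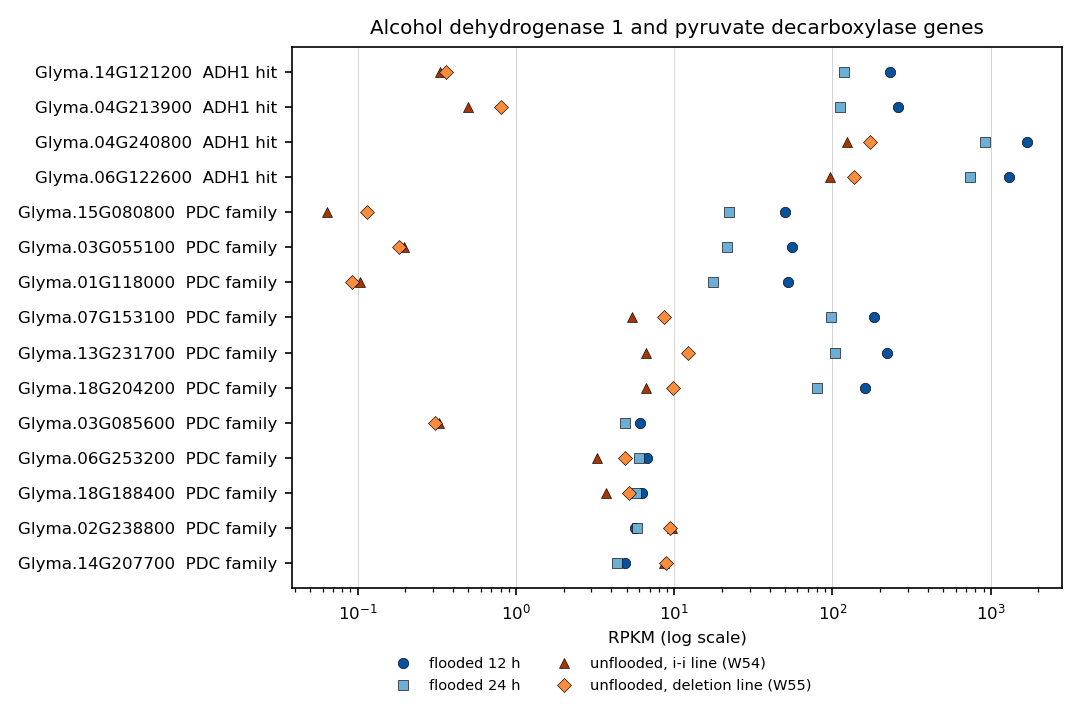
RPKM on a log axis of the 4 alcohol dehydrogenase 1 (ADH1) and 11 pyruvate decarboxylase family (PDC) genes tested, with 1 point per library. Flooded libraries (blue) lie far to the right of unflooded ones (orange) in the raised genes, as in Glyma.14G121200 (230 and 117 against 0.33 and 0.362), with 12 h to the right of 24 h.

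The unflooded libraries were not alike in these genes. W55 lay above W54 in 12 of the 15 fermentation genes, with a median of 0.29 log2 units, against 16631 of 31522 genes and a median of 0.01 in all. It also lay above W54 in 18 of 19 DUF1637 genes (median 0.90), in all 5 LOB domain-containing protein 41 genes (1.09), in all 4 ACC oxidase genes (0.70), in all 3 HRE2 genes (1.19) and in the haemoglobin 1 gene (2.38). Of 7 hypoxia-responsive genes 6 were higher in W55, with a smaller median of 0.21. In these picked families, then, the W55 root read higher than the W54 root. The same held for all 4 haemoglobin 2 genes (median 0.88), which were near 0 in flooded roots, so the difference was not limited to genes raised in flooded roots. With 1 library per line this difference was not tested.

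Of 12 tested genes for the other ends of glycolysis, lactate and alanine formation, 5 were higher, 0 lower and 7 not called (median 0.67). Both alanine aminotransferase 2 genes missed the threshold. Glyma.07G045900 read 55.4 and 32.7 RPKM flooded against 22.3 and 19.7 RPKM unflooded (1.00 ± 0.29, adjusted p = 0.0538), with the sides apart. The called genes share a description that covers lactate and malate dehydrogenases alike. Glyma.02G005500 rose from 33.4 and 34.5 RPKM in unflooded to 179 and 190 RPKM in flooded roots (5.43-fold, 2.42 ± 0.14, adjusted p = 0.00298), and Glyma.10G006500 from 33.3 and 34.4 RPKM to 163.3 and 173 RPKM (4.97-fold, 2.29 ± 0.14, adjusted p = 0.00306). Unlike the fermentation genes, both were no lower at 24 h than at 12 h. Glyma.06G231500, a mitochondrial malate dehydrogenase match, moved from 41.6 and 42 RPKM to 65.4 and 66.3 RPKM (0.65 ± 0.13, adjusted p = 0.0226), and its tag-adjusted difference of 0.21 was not called (adjusted p = 0.584).

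Sugar breakdown and glycolysis were raised in part, through a limited set of family members. Of 121 tested genes 51 were higher, 17 lower and 53 not called (median 0.29), and the tag-adjusted fit called 31 higher and 14 lower. The summed level was 7375 and 5835 RPKM in flooded and 2308 and 2227 RPKM in unflooded roots. Without W54 the list had 3 higher and 2 lower, and without W55 8 higher and 2 lower.

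Sucrose synthase opens the pathway by splitting sucrose at a lower energy cost than invertase. Of 11 sucrose synthase genes, a grouping made after the values were seen, 6 were higher and 0 lower (median 0.84), but the tag-adjusted fit called 4 higher and 3 lower (median −0.76). The sucrose synthase 3 genes Glyma.19G212800 (199 and 112 RPKM flooded, 10.9 and 11.2 RPKM unflooded) and Glyma.03G216300 (142 and 80.2 RPKM, 7.57 and 7.6 RPKM) each rose by log2 3.66, with SE of 0.32 and 0.31. The sucrose synthase 4 genes rose less and from a higher base, as in Glyma.13G114000, with 335 and 330 RPKM against 154 and 184 RPKM (0.99 ± 0.17, adjusted p = 0.0148), whose tag-adjusted difference was −0.76 and not called (adjusted p = 0.643). The 5 sucrose synthase 6 genes were not called, with differences of −0.32 to −0.52.

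Enolase, near the end of glycolysis, gave the largest differences in the list. Glyma.04G173400 read 48.9 and 22.2 RPKM flooded against 0.0344 and 0.0172 RPKM unflooded (5.05 ± 0.40, adjusted p = 0.00386), and it is one of the genes that separate the header tags. Glyma.16G204600 read 291 and 131 RPKM against 8.92 and 9.79 RPKM (22.5-fold, 4.25 ± 0.42, adjusted p = 0.00534), and Glyma.09G153900 308 and 136.2 RPKM against 9.97 and 10.7 RPKM (21.5-fold, 4.19 ± 0.43, adjusted p = 0.00564). The tag-adjusted difference of Glyma.09G153900, 3.09, was not called (adjusted p = 0.0561). These enolase genes have close copies, and a read that matches several copies may be counted in each. The enolase gene Glyma.19G190900 rose less, from 76.7 and 65.4 RPKM to 125 and 159 RPKM (0.99 ± 0.19, adjusted p = 0.0196), with a tag-adjusted difference of 0.20 that was not called (adjusted p = 0.825).

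Between these steps several single genes rose, all named after their values were seen. Cytosolic glyceraldehyde-3-phosphate dehydrogenase Glyma.18G009700 read 276 and 219.1 RPKM flooded against 14.9 and 15.4 RPKM unflooded (16.3-fold, 3.94 ± 0.18, adjusted p = 0.00255). Phosphoglycerate kinase Glyma.15G262100 read 423 and 220 RPKM against 28.3 and 23.5 RPKM (12.4-fold, 3.52 ± 0.36, adjusted p = 0.00559). Pyruvate kinase Glyma.10G201100 read 172 and 105 RPKM against 9.07 and 9.46 RPKM (14.9-fold, 3.73 ± 0.28, adjusted p = 0.00373). In each the sides lay far apart and the 12 h root was the highest. Other glycolytic genes differed in direction among themselves. Phosphofructokinase 3 was higher for Glyma.06G088600 (68.1 and 37.1 RPKM against 19 and 18.3 RPKM, 1.39 ± 0.33, adjusted p = 0.0312) and lower for Glyma.01G005400 (18.8 and 24.5 RPKM against 55.1 and 41.3 RPKM, −1.11 ± 0.22, adjusted p = 0.0215, tag-adjusted −1.10 and not called, adjusted p = 0.249). The chloroplast triosephosphate isomerase match Glyma.03G185800 was lower too (11.6 and 14.9 RPKM against 32.3 and 31.7 RPKM, −1.21 ± 0.17, adjusted p = 0.00992).

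Haemoglobins split into a set that was higher and a set that was near 0 in flooded roots. Of 7 tested genes 2 were higher, 4 lower and 1 not called. Haemoglobin 1 is a class of plant haemoglobin that binds oxygen very tightly and removes nitric oxide under low oxygen. Its gene Glyma.11G121800, named after its values were seen, read 355 and 207 RPKM in flooded roots, 6.96 RPKM in W54 and 39.3 RPKM in W55. The sides did not overlap, but W55 stood well above W54 (12.2-fold between the means of the sides, 3.93 ± 0.88, adjusted p = 0.028), and the call was lost without the 12 h library (adjusted p = 0.0685) and without W54 (0.0653). The haemoglobin 3 gene Glyma.14G140400 rose from 7.66 and 7.72 RPKM to 23.1 and 22.8 RPKM (2.98-fold, 1.47 ± 0.12, adjusted p = 0.004). The other haemoglobin 3 gene, Glyma.04G079200, overlapped between the sides, with 18.9 and 11.4 RPKM flooded and 7.64 and 23.2 RPKM unflooded (adjusted p = 0.875).

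The 4 haemoglobin 2 genes were the most lowered genes with a description. Glyma.10G198800 read 0 and 0.0083 RPKM in the 12 h and 24 h roots and 292 and 513 RPKM in W54 and W55 (−8.58 ± 0.32, adjusted p = 0.00214). Glyma.10G199100 read 0.00622 and 0.00681 RPKM against 247.1 and 444 RPKM (−8.36 ± 0.33), Glyma.10G199000 0.00737 and 0.00805 RPKM against 222 and 397 RPKM (−8.20 ± 0.33), and Glyma.20G191200 0.00738 and 0.00807 RPKM against 187 and 355 RPKM (−8.00 ± 0.35). All 4 were abundant in both unflooded roots and down to no more than single reads in the flooded ones, and these fitted differences depend on the pseudocount and are no bound. Near-identical copies may share reads here, so the 4 values are not independent. In leaf, seed coat and whole seed their family summed to at most 0.0257 RPKM, and in flower to 9.67 RPKM. Soybean leghaemoglobins, the oxygen carriers of nitrogen-fixing root nodules, belong to this protein family, and the table does not say whether these genes encode them. Genes of the nodule marker list, which includes these haemoglobins, summed to 949 and 1257 RPKM in flooded and 1962 and 2718 RPKM in unflooded roots. In that list 103 of 240 genes reached 1 RPKM in both flooded libraries and 104 in both unflooded ones. Of 122 tested, 29 (23.8%) were higher and 26 (21.3%) lower, close to the 23.5% and 22.7% of all genes. Without the haemoglobin 2 genes the list summed to 1014 and 1010 RPKM in unflooded roots, between the flooded 949 and 1257 RPKM. In other tissues the whole list summed to 209 to 3073 RPKM, so it did not set the roots apart. The part of nodule tissue was not tested.

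Several further genes were at or near 0 in flooded roots. The remorin Glyma.08G012800, of a family of plasma membrane proteins, read 0 RPKM in both flooded libraries and 22.8 and 41.8 RPKM in the unflooded ones, at least 1650-fold lower when 0 is set to the limit of 3 reads per library (adjusted p = 0.00316). The glycine-rich protein gene Glyma.14G052400 read 0 RPKM in both and 85.4 and 203 RPKM unflooded, at least 6300-fold lower (adjusted p = 0.00316). The PLAC8 family gene Glyma.09G187000 read 0.0301 and 0.0329 RPKM against 20.4 and 41.8 RPKM (987-fold, −4.86 ± 0.38, adjusted p = 0.00379). In all 3 genes W55 was above W54, as in the haemoglobin 2 genes, and other tissues reached at most 0.148 RPKM. In all, 33 genes read 0 in both flooded libraries with an unflooded mean of at least 5 RPKM, and 16 did so the other way round.

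Genes of oxygen sensing and its regulation did not move as 1 group. Of 106 tested 24 were higher, 22 lower and 60 not called (median 0.20), shares close to those of all genes. Families within this group were set apart after the values were seen. HRE2 is an ethylene response factor of group VII that low oxygen induces in Arabidopsis. Its match Glyma.19G213100 read 165.4 and 71.6 RPKM in flooded roots against 0.377 and 1.46 RPKM in unflooded ones (129-fold, 5.90 ± 0.52, adjusted p = 0.00455). The other HRE2 matches missed the threshold, as in Glyma.02G016100, with 58 and 73.4 RPKM against 24.2 and 54.9 RPKM (adjusted p = 0.197). The matches of RAP2.2, RAP2.12 and RAP2.3, group VII factors that are made constantly in Arabidopsis and kept from acting by oxygen, gave 1 higher, 1 lower and 4 not called of 6. The higher one, Glyma.19G262700, went from 3.91 and 3.57 RPKM to 12.5 and 10.1 RPKM (1.38 ± 0.14, adjusted p = 0.0058).

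The DUF1637 family includes the plant cysteine oxidases of Arabidopsis, the enzymes that mark group VII factors for breakdown when oxygen is present. Of 19 genes 10 (52.6%) were higher, 2 (10.5%) lower and 7 not called (median 1.18), against 23.5% and 22.7% of all genes. Glyma.19G115300 read 116 and 53.1 RPKM in flooded and 2.67 and 7.97 RPKM in unflooded roots (15.9-fold, 3.80 ± 0.61, adjusted p = 0.0134). Its close copy Glyma.19G115600 read 102 and 45.6 RPKM against 2.32 and 7.03 RPKM and may share reads with it. Glyma.16G037600 read 85.5 and 36.4 RPKM against 2.72 and 7.64 RPKM (11.8-fold, 3.33 ± 0.62, adjusted p = 0.0181). All 3 had the order 12 h, 24 h, W55, W54 from high to low. At the other end Glyma.06G276400 was lower, with 2.35 and 1.39 RPKM against 6.68 and 15.5 RPKM (−1.98 ± 0.44, adjusted p = 0.0276).

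Genes described as hypoxia-responsive gave 5 higher and 0 lower of 7 tested (median 1.39). Glyma.18G022000 read 39.1 and 25.1 RPKM flooded and 0.0822 and 0.198 RPKM unflooded (229-fold, 4.83 ± 0.24, adjusted p = 0.00272), and other tissues reached at most 0.231 RPKM. Wound-responsive family genes, some of which are induced by low oxygen in Arabidopsis, gave 8 higher (22.2%), 4 lower and 24 not called of 36, with the higher share near the 23.5% of all genes. Glyma.18G202300 read 87.4 RPKM at 12 h and 25.5 RPKM at 24 h against 0.535 and 1.86 RPKM (47.1-fold, 4.53 ± 0.69, adjusted p = 0.0119). Glyma.15G276600 read 32.3 and 8.88 RPKM against 0.0162 RPKM in both unflooded roots (4.16 ± 0.62, adjusted p = 0.0111), and it separates the header tags. Both genes were highest at 12 h by a wide margin.

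Other regulators linked to low oxygen in Arabidopsis did not follow. The LOB domain-containing protein 41 genes gave 0 higher and 1 lower of 5. Glyma.18G297100 read 50.3 RPKM at 12 h, 10.9 RPKM at 24 h, 12.8 RPKM in W54 and 27.6 RPKM in W55 (adjusted p = 0.768), so the 24 h root was the lowest and the sides overlapped. Glyma.07G091600 was lower, at 5.54 and 6.17 RPKM against 22 and 46.6 RPKM (−2.26 ± 0.40, adjusted p = 0.0163), with a tag-adjusted difference of −0.63 that was not called (adjusted p = 0.706). Respiratory burst oxidases, which make superoxide at the plasma membrane, gave 0 higher, 6 lower and 8 not called of 14 (median −0.85). The lower share was 42.9%, against 22.7% of all genes. The median difference from the unflooded mean was −0.98 at 12 h and 0.08 at 24 h. The tag-adjusted fit called none of these genes (median −0.04). Glyma.06G162300, a match of the D form, read 3.91 and 2.84 RPKM against 10.5 and 9.99 RPKM (−1.37 ± 0.16, adjusted p = 0.00713), and its tag-adjusted difference of −0.63 was not called (adjusted p = 0.56).

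Of 30 tested genes for ethylene synthesis and perception 15 were higher, 1 lower and 14 not called (median 0.61). The tag-adjusted fit called 10 higher and 0 lower. ACC oxidase carries out the last step of ethylene synthesis. The ACC oxidase 1 gene Glyma.08G029200 rose from 3.66 and 6.04 RPKM to 88.2 and 45.6 RPKM (13.8-fold, 3.50 ± 0.41, adjusted p = 0.00705), and Glyma.05G222400 from 6.03 and 12.0 RPKM to 126 and 65.2 RPKM (10.6-fold, 3.27 ± 0.48, adjusted p = 0.0107). Outside roots these 2 genes stayed at or below 0.16 and 0.23 RPKM. The ethylene-forming enzyme matches, a related group of oxidases, were steadier, as in Glyma.09G008400, at 43.8 and 52 RPKM against 57.3 and 46.8 RPKM (adjusted p = 0.642).

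EIN3-binding F box protein 1 (EBF1) removes the main ethylene transcription factor and is itself induced by ethylene in Arabidopsis. Its 8 matches in the list were all called higher, with differences of 0.83 to 3.33. Glyma.17G113900 read 32.6 and 16.3 RPKM flooded against 1.3 and 1.52 RPKM unflooded (17.4-fold, 3.33 ± 0.35, adjusted p = 0.00595). The ethylene receptor genes of type ERS1 rose little, as in Glyma.19G213300, at 12.8 and 10.7 RPKM against 5.75 and 6.19 RPKM (0.88 ± 0.14, adjusted p = 0.014; tag-adjusted 0.43, adjusted p = 0.0861). Among matches of EIN3, the factor itself, Glyma.20G051500 was lower, at 31.8 and 28.6 RPKM against 49.5 and 43.3 RPKM (−0.59 ± 0.15, adjusted p = 0.037), with a tag-adjusted difference of −0.34 that was not called (adjusted p = 0.754).

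Genes of mitochondrial respiration gave 35 higher (52.2%), 2 lower and 30 not called of 67 (median 0.51), and 15 higher and 1 lower in the tag-adjusted fit. Their median cDNA length was 1025 bases. Of all tested genes with cDNA of 102 to 1064 bases 42.2% were called higher, with a median of 0.39. The part of transcript length in this result was not tested. The largest differences among the called genes were in subunits and assembly factors of cytochrome c oxidase, the enzyme that passes electrons to oxygen. Glyma.17G069400, a subunit 6B match, read 69.3 and 65.5 RPKM flooded against 8.79 and 7.93 RPKM unflooded (8.06-fold, 2.88 ± 0.13, adjusted p = 0.00259), and Glyma.13G090900 read 38.3 and 35.7 RPKM against 6.53 and 6.38 RPKM (5.73-fold, 2.36 ± 0.12, adjusted p = 0.00277). The COX15 gene Glyma.02G303400, for an assembly factor, read 16.9 and 9.15 RPKM against 2.13 RPKM in both unflooded roots (2.11 ± 0.30, adjusted p = 0.0102). Genes that let electrons or protons bypass energy coupling did not pass the test. Alternative oxidase 2, Glyma.08G072200, read 5.07 RPKM at 12 h and 29.2 RPKM at 24 h against 52.6 and 71 RPKM unflooded (adjusted p = 0.0968). Uncoupling protein 5, Glyma.02G040700, read 2.85 and 34.5 RPKM against 79 and 155 RPKM (adjusted p = 0.0874). In both the flooded libraries lay below the unflooded ones, and the 12 h and 24 h roots differed widely from each other.

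**Figure D4:**
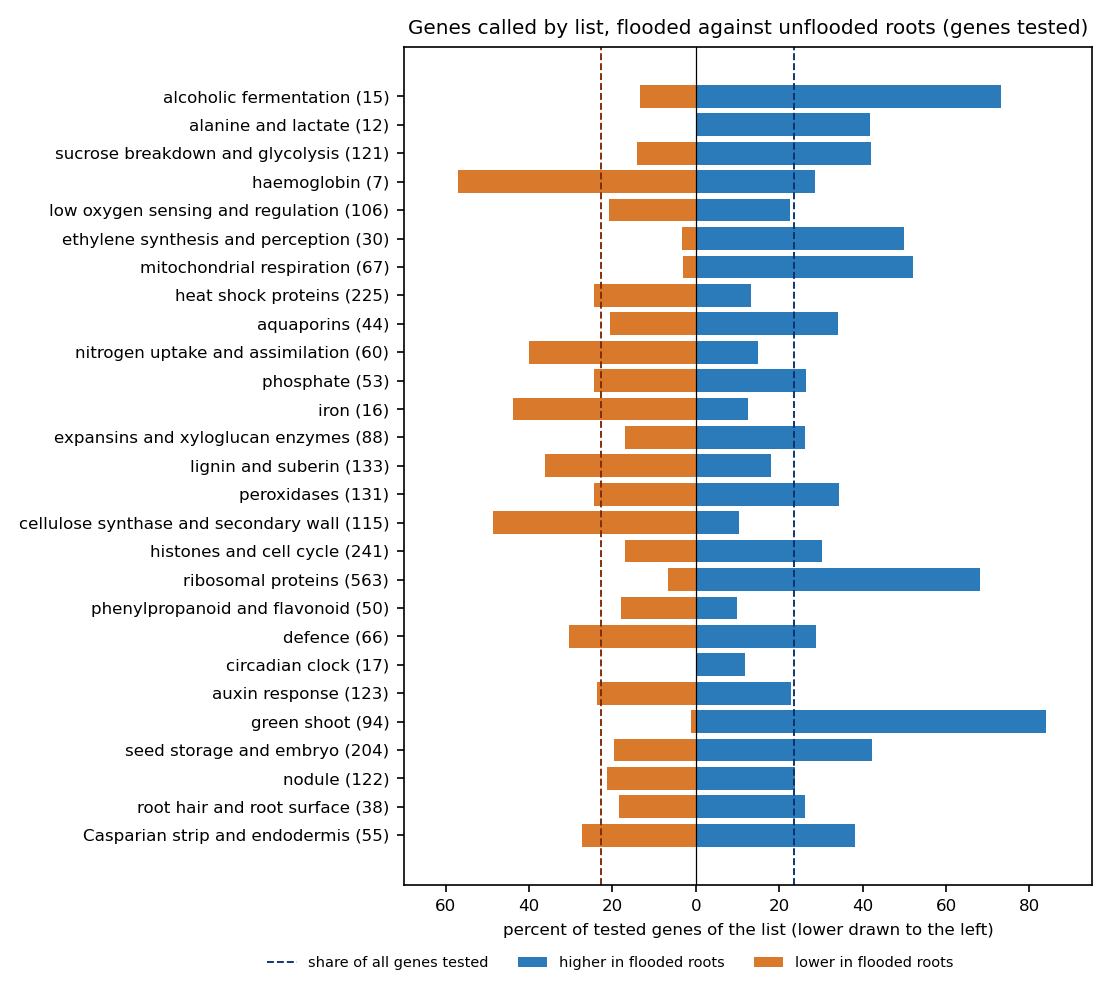
Percent of the tested genes of each list that limma called higher (blue, to the right) or lower (orange, to the left) in flooded roots, with the number tested in parentheses and dashed lines for the shares of all genes tested (23.5% and 22.7%). Fermentation, ethylene, mitochondrial, ribosomal and green shoot lists extend to the right, and nitrogen, iron, lignin and secondary wall lists to the left.

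Nitrogen uptake and assimilation leaned to lower, with 9 higher, 24 lower and 27 not called of 60 (median −0.47). The shares were 15.0% higher and 40.0% lower, against 23.5% and 22.7% of all genes. The lower genes named here are transporters and nitrate reductase, the first enzyme of nitrate assimilation. The nitrate transporter 2.4 gene Glyma.11G195200 fell from 44.7 and 90.2 RPKM to 2.39 and 1.94 RPKM (31.1-fold, −4.34 ± 0.39, adjusted p = 0.00455), and Glyma.12G176900 from 40.2 and 61.3 RPKM to 1.95 and 2.27 RPKM (24.0-fold, −4.02 ± 0.25, adjusted p = 0.00309). The nitrate transporter 2.5 gene Glyma.18G141900 fell from 56.6 and 54.3 RPKM to 1.05 and 3.21 RPKM (26.0-fold, −4.25 ± 0.38, adjusted p = 0.00455). Ammonium transporter 1;2 was lower as well, as in Glyma.10G167800, named after its values were seen, at 3.14 and 1.65 RPKM against 30.4 and 23.2 RPKM (−3.05 ± 0.27, adjusted p = 0.00464). Nitrate reductase 1, Glyma.13G084000, read 2.13 and 0.625 RPKM flooded and 15.4 and 51 RPKM unflooded (24.1-fold, −3.69 ± 0.69, adjusted p = 0.0184). In each of these genes the sides were well apart, and nitrate reductase was also far apart between W54 and W55. Nitrate transporter 1.5, which loads nitrate into the xylem, went up instead: Glyma.05G070600 read 18 and 32.8 RPKM flooded against 2.13 and 1.07 RPKM unflooded (15.9-fold, 3.32 ± 0.36, adjusted p = 0.00625). Among glutamine synthetases Glyma.18G041100 was not called, at 306 and 266 RPKM against 333 and 320 RPKM (adjusted p = 0.354).

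Sulphate and vacuolar iron transporters held further single genes that read 0 in both flooded roots, in lists made after the values were seen. Of 25 sulphate transporters 5 were higher, 6 lower and 14 not called. The sulphate transporter 2;1 gene Glyma.18G018900 read 0 RPKM in both flooded roots and 13.2 and 30.4 RPKM in unflooded ones, at least 2900-fold lower (adjusted p = 0.00511). Glyma.11G238500 read 0 RPKM in both and 11 and 22.2 RPKM, at least 2230-fold lower (adjusted p = 0.00455). Of 16 vacuolar iron transporter family genes 3 (18.8%) were higher and 5 (31.2%) lower. Among them Glyma.05G121600 read 0 RPKM in both flooded roots and 11.3 and 38.1 RPKM in the unflooded ones, at least 1350-fold lower (adjusted p = 0.00926). In these 3 genes W55 was again above W54.

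Iron uptake and storage gave 2 higher, 7 lower and 7 not called of 16 (median −0.91). Ferric reduction oxidase 4, Glyma.10G231600, which reduces iron for uptake, was at 0.72 and 1.11 RPKM against 6.23 and 7.16 RPKM (7.31-fold, adjusted p = 0.00382). Nicotianamine synthase genes, for a metal chelator, were lower in Glyma.03G231200 and Glyma.19G228400 by log2 −1.66 each. The most abundant one, Glyma.08G175400, was not called, at 4.19 and 21.4 RPKM flooded and 100.9 and 29.5 RPKM unflooded (adjusted p = 0.11). The 2 higher genes were matches of ferritin 4, which stores iron, as in Glyma.02G262500, at 18.1 and 10.8 RPKM against 5.43 and 5.39 RPKM (1.23 ± 0.27, adjusted p = 0.0262; tag-adjusted 1.00, adjusted p = 0.202). Phosphate genes were near the background, with 14 higher and 13 lower of 53, and 6 and 4 in the tag-adjusted fit. Phosphate transporter 4;3, Glyma.02G224200, was higher at 14.7 and 7.76 RPKM against 1.95 and 2.41 RPKM (1.89 ± 0.32, adjusted p = 0.0149), and purple acid phosphatase 27, Glyma.06G170300, lower at 1.38 and 1.11 RPKM against 9.12 and 6.1 RPKM (−1.91 ± 0.20, adjusted p = 0.00575). The call of Glyma.06G170300 was lost in the fit over all libraries, and with the tag its difference was −4.75 (adjusted p = 0.0926).

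**Figure D5:**
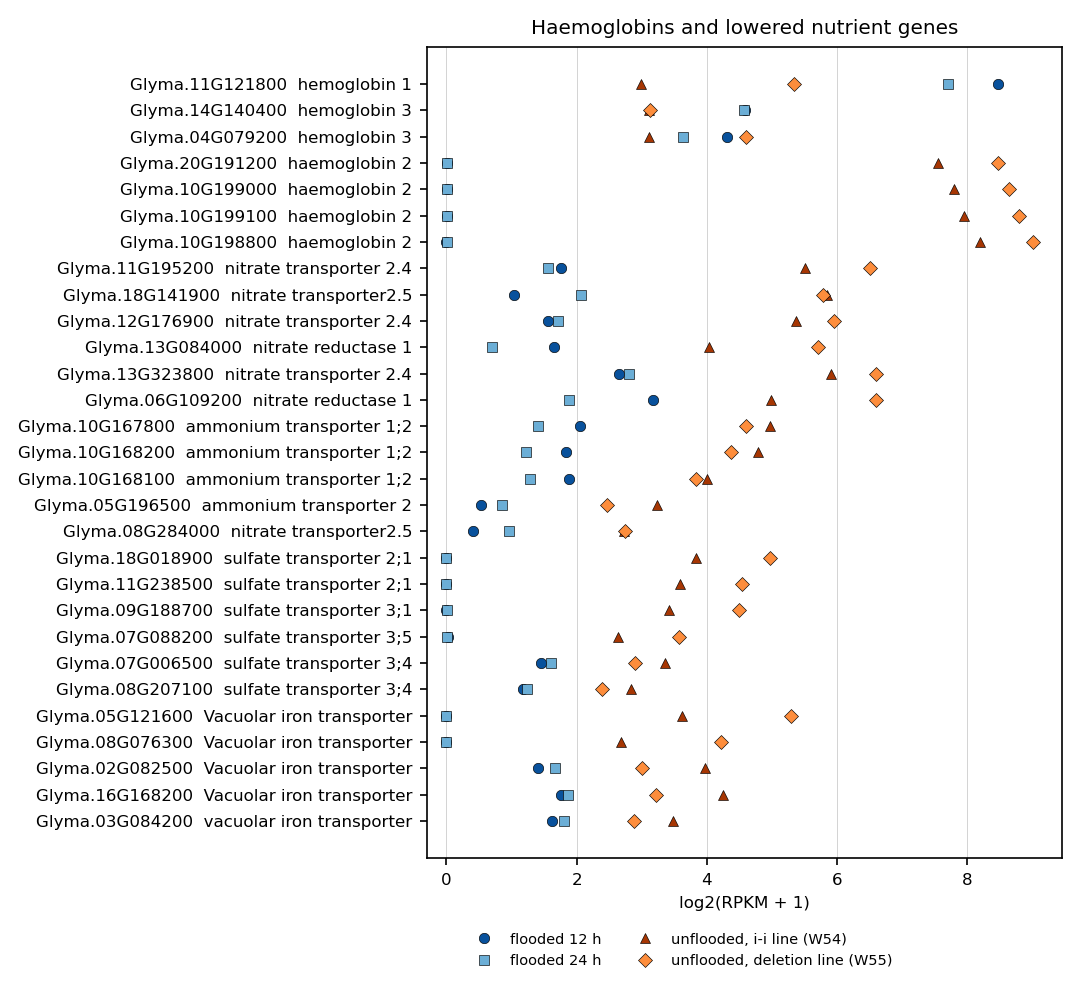
Level, as log2(RPKM + 1), of the haemoglobin genes tested and of nitrogen, sulphate and vacuolar iron transporter genes and nitrate reductases that were lower in flooded roots, with 1 point per library. The 4 haemoglobin 2 genes are near 0 in both flooded libraries and at 187 to 513 RPKM in the unflooded ones, while haemoglobin 1 (Glyma.11G121800) is highest in flooded roots (355 and 207 RPKM).

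Of 44 tested aquaporins, the water channels, 15 were higher, 9 lower and 20 not called (median 0.43), but the tag-adjusted fit called only 1 higher and 8 lower, so most of the higher calls rest on the root comparison alone. The plasma membrane gene Glyma.10G211000, of type PIP2, read 100.0 and 194.4 RPKM flooded against 22.8 and 23.4 RPKM unflooded (6.37-fold, 2.55 ± 0.36, adjusted p = 0.00978), and was named after its values were seen. The NOD26-like intrinsic proteins, a subfamily named after a soybean nodule protein, held the 3 called members with the largest differences, all lower. Glyma.18G259500 read 4.33 and 4.64 RPKM against 92.4 and 65.2 RPKM (17.6-fold, −3.83 ± 0.20, adjusted p = 0.00275), Glyma.08G120100 0.0213 and 0.02 RPKM against 11 and 30.9 RPKM (1015-fold, −4.25 ± 0.51, adjusted p = 0.00735), and Glyma.09G238200 11.9 and 15.1 RPKM against 122 and 92.2 RPKM (7.92-fold, −2.88 ± 0.21, adjusted p = 0.00351). The sides of all 3 were well separated.

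Cell wall genes included a few very large rises. Of 88 expansins and xyloglucan enzymes, which loosen walls, 23 were higher, 15 lower and 50 not called (median 0.20), close to the background, and 11 higher and 7 lower in the tag-adjusted fit. Within them, 6 of 9 expansin-like B genes were higher and 2 lower, a family set apart after the values were seen. Glyma.17G147200 read 291 and 395 RPKM in flooded roots and 0.232 and 0.288 RPKM in unflooded ones (1320-fold, 8.08 ± 0.20, adjusted p = 0.00162), and Glyma.17G146900 264 and 358 RPKM against 0.241 and 0.28 RPKM (1193-fold, 7.93 ± 0.20, adjusted p = 0.00162). The flooded reads of these 2 genes were nearly equal in number, 85388 and 105875 for the first and 85397 and 105878 for the second. A read may be counted in both, so their values are not independent. Glyma.17G147400 read 185 and 309 RPKM against 0.223 and 0.64 RPKM (573-fold, 7.41 ± 0.32, adjusted p = 0.00242). In these 3 genes the 24 h root was above the 12 h root, unlike in the fermentation genes, and other tissues reached at most 0.551 RPKM. The lower members lay on other chromosomes, as in Glyma.01G204800, at 4.46 and 2.06 RPKM against 20.2 and 17 RPKM (−2.25 ± 0.32, adjusted p = 0.01).

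Secondary wall genes were lower. Of 115 genes for cellulose synthases, fasciclin-like proteins, COBRA and xylem walls 12 (10.4%) were higher, 56 (48.7%) lower and 47 not called (median −0.70). Among all genes 23.5% were higher and 22.7% lower. The tag-adjusted fit called 3 of the list higher and 52 lower. Without W54 0 were higher and 26 lower, and without W55 1 and 29. Fasciclin-like arabinogalactan protein 11 is made where fibres and vessels thicken their walls. Its matches Glyma.13G226000 (0.441 and 0.266 RPKM flooded, 19 and 28.2 RPKM unflooded), Glyma.13G327300 (0.298 and 0.114 RPKM, 18.4 and 20.4 RPKM) and Glyma.12G069500 (0.717 and 0.489 RPKM, 21.8 and 25.7 RPKM) fell by 4.15, 4.07 and 3.94 on the log2 scale, with adjusted p of 0.0029, 0.00207 and 0.0022. Each read below 1 RPKM in flooded roots.

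Lignin and suberin genes gave 24 (18.0%) higher, 48 (36.1%) lower and 61 not called of 133 (median −0.40), against 23.5% and 22.7% of all genes. The list was led by UPF0497 genes, a family that includes the proteins of the Casparian strip, the barrier of the root endodermis. Glyma.01G128000 read 0 and 0.00572 RPKM flooded against 19 and 41.1 RPKM unflooded (−4.85 ± 0.40, adjusted p = 0.00407), and Glyma.08G129300 0.531 and 0.381 RPKM against 10.9 and 10.7 RPKM (23.6-fold, −3.01 ± 0.11, adjusted p = 0.00207). The Casparian strip and endodermis marker list as a whole summed to 261 and 270 RPKM flooded and 241 and 251.8 RPKM unflooded, with 21 higher and 15 lower of 55. Proline-rich and hydroxyproline-rich wall proteins gave 11 higher (7.24% of those tested) and 56 lower (36.8%), a list made after the values were seen. Proline-rich protein 1, Glyma.20G203800, read 4.56 and 3.86 RPKM against 127 and 218 RPKM (−5.00 ± 0.32, adjusted p = 0.00312). The hydroxyproline-rich gene Glyma.15G057500 read 0.524 and 0.418 RPKM against 48.8 and 62.4 RPKM (118-fold, −5.25 ± 0.18, adjusted p = 0.00207), and its neighbour Glyma.15G057400 0.0941 and 0.206 RPKM against 24.5 and 36.2 RPKM (202-fold, −4.73 ± 0.23, adjusted p = 0.00272). The BURP domain gene Glyma.04G180400, a match of the drought-induced RD22, read 6.79 and 4.26 RPKM against 134 and 223 RPKM (32.4-fold, −4.76 ± 0.36, adjusted p = 0.00369). These 4 genes were picked for a large fall and no overlap between the sides, so the separation of their values follows from that choice.

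Class III peroxidases, enzymes of wall cross-linking and hydrogen peroxide turnover, went both ways, with 45 higher, 32 lower and 54 not called of 131. Glyma.12G101000 read 11.5 and 10.6 RPKM against 0.0218 and 0.0109 RPKM (3.57 ± 0.10, adjusted p = 0.00168), and Glyma.08G179600 18.8 and 28.1 RPKM against 0.00513 and 0.0128 RPKM (4.57 ± 0.21, adjusted p = 0.00262). Glyma.04G099500 read 29.2 and 26.8 RPKM against 0.0147 and 0.00736 RPKM (4.84 ± 0.11, adjusted p = 0.00162), but it separates the header tags and its tag-adjusted difference turned to −1.29 (adjusted p = 0.194). Of these 3 genes, then, the direction of the last depends on how the tag is treated.

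The largest rises among all 31522 genes tested, described or not, belonged to a run of 10 genes on chromosome 18. They are Glyma.18G032300 to Glyma.18G033200, described as lipid-transfer protein or 2S albumin. The largest difference the other way was greater in size, at −11.01 for Glyma.13G364400. Glyma.18G032900 read 825 RPKM at 12 h and 1196 RPKM at 24 h against 0.0662 and 0.0276 RPKM in W54 and W55 (21551-fold, 9.89 ± 0.23, adjusted p = 0.00162). The smallest difference in the run was that of Glyma.18G033200, at 237 and 334 RPKM against 0 and 0.00724 RPKM (8.13 ± 0.21, adjusted p = 0.00162). Every gene of the run was higher at 24 h than at 12 h. These are neighbouring copies of each other, and a read may be counted in several of them. Of the 93 tested genes with this description, which covers proteins that move lipids outside cells and seed albumins alike, 67 were higher and 9 lower (median 1.56). They summed to 12162 and 17597 RPKM in flooded and 2304 and 2445 RPKM in unflooded roots. The seed storage and embryo marker list, which includes genes of this run, summed to 13046 and 18901 RPKM in flooded roots. That was above the 3785 and 4351 RPKM of unflooded roots and the 942 to 7028 RPKM of other tissues. Whole seed, at 2276 to 3050 RPKM, lay below the unflooded roots, so the list did not set seed tissue apart. Of all 406 genes of that list 47.3% reached 1 RPKM in both flooded libraries and 40.4% in both unflooded ones, and 70 and 69 genes read 0 in both. The part of seed tissue in these results was not tested.

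Kunitz protease inhibitors, small proteins that block digestive proteases, gave 16 higher and 5 lower of 24, a list made after the values were seen. The shares were 66.7% and 20.8%, against 23.5% and 22.7% of all genes. A cluster on chromosome 9 was almost silent in unflooded roots. Glyma.09G163800 read 180.6 and 205 RPKM flooded against 0.0254 and 0.0974 RPKM unflooded (3137-fold, 7.51 ± 0.14, adjusted p = 0.00162). Glyma.09G163000 read 60.6 and 89.8 RPKM against 0 RPKM in both unflooded roots, at least 5440-fold higher (adjusted p = 0.00207). The same chromosome also held a lowered member, Glyma.09G155500, at 12.7 and 17.2 RPKM against 95.2 and 55.7 RPKM (−2.22 ± 0.31, adjusted p = 0.0101). Close copies in the cluster may share reads.

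Defence genes as a list sat near the background, with 19 higher, 20 lower and 27 not called of 66. The thaumatin family gene Glyma.11G140800 rose from 3.51 and 4.46 RPKM to 54.5 and 42.3 RPKM (12.1-fold, 3.31 ± 0.20, adjusted p = 0.00306). The PR-1-like gene Glyma.15G062300 rose from 5.39 and 5.67 RPKM to 23.7 RPKM at 12 h and 67.2 RPKM at 24 h (2.66 ± 0.52, adjusted p = 0.0208), and osmotin 34, Glyma.01G217700, from 1.49 and 2.48 RPKM to 14.1 and 12.1 RPKM (2.26 ± 0.22, adjusted p = 0.00509). Regulators linked to defence leaned lower. Of 125 WRKY transcription factors, a list made after the values were seen, 4 were higher, 46 lower and 75 not called (median −0.88). The shares were 3.2% and 36.8%, against 23.5% and 22.7% of all genes. The median was −1.31 at 12 h and −0.45 at 24 h. Their summed level was 578 and 1349 RPKM at 12 h and 24 h, and 2271 and 2768 RPKM in W54 and W55. Glyma.06G077400, a WRKY11 match, read 8.53 and 9.99 RPKM against 82.9 and 88.7 RPKM (9.27-fold, −3.08 ± 0.15, adjusted p = 0.00272), with a tag-adjusted difference of −1.77 that was not called (adjusted p = 0.262).

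Ribosomal protein genes were the largest list, with 384 (68.2%) higher, 37 (6.57%) lower and 142 not called of 563 (median 0.85). Among all genes 23.5% were higher and 22.7% lower. The tag-adjusted fit called 166 higher and 9 lower, and without W54 43 were higher and 1 lower. Glyma.10G258500, of the S14p/S29e family, read 148.7 and 159 RPKM flooded against 4.34 and 3.76 RPKM unflooded (37.9-fold, 4.94 ± 0.14, adjusted p = 0.00168). Glyma.16G115100, of the S13/S15 family, read 37.6 and 34.6 RPKM against 0 RPKM in both unflooded roots, at least 607-fold higher. It belongs to the genes that separate the tags, with 18.5 to 40.7 RPKM in the 4 other tagged libraries and 0.0473 to 7.55 RPKM in the 30 untagged ones. Glyma.03G103300, a ribosomal protein L5 match, read 48.2 and 46.6 RPKM against 0.527 and 0.674 RPKM (4.92 ± 0.12, adjusted p = 0.00162), separates the tags too, and had a tag-adjusted difference of 1.21 that was not called (adjusted p = 0.146). Ribosomal cDNAs are short, and of the tested genes with cDNA up to 1064 bases 42.2% were called higher and 17.5% lower, against 11.8% and 23.0% of those of at least 2652 bases. The part of transcript length and of the tag in the ribosomal result was not tested. The lipid-transfer and 2S albumin, Kunitz and hypoxia-responsive lists were short as well, with median cDNA of 816, 960 and 751 bases. The part of length in those results was not tested either.

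Histone and cell cycle genes gave 73 higher, 41 lower and 127 not called of 241 (median 0.17), and 18 higher and 13 lower in the tag-adjusted fit (median 0.04). The histone gene Glyma.11G241700 read 128 and 123 RPKM against 27.8 and 32.8 RPKM (4.15-fold, 2.03 ± 0.16, adjusted p = 0.00398), and cyclin D1;1, Glyma.10G256200, which promotes entry into the cell cycle, 0.455 and 0.47 RPKM against 4.31 and 6.53 RPKM (11.7-fold, −2.10 ± 0.21, adjusted p = 0.00526). The histone deacetylase 1 match Glyma.14G157100 rose by 2.52 ± 0.09 (adjusted p = 0.00209) and separates the tags. Heat shock genes gave 30 higher (13.3%) and 55 lower (24.4%) of 225 (median −0.21), so the share that was lower is near the 22.7% of all genes. Heat shock factor A6B, Glyma.10G029600, was at 0.102 and 0.217 RPKM against 8.66 and 6.54 RPKM (47.7-fold, −2.87 ± 0.15, adjusted p = 0.00275). The mitochondrial small heat shock protein 23.6, Glyma.12G013100, was at 6.67 and 4.81 RPKM against 56.2 and 37.6 RPKM (8.17-fold, −2.81 ± 0.26, adjusted p = 0.00485), and heat shock protein 70B, Glyma.15G088000, at 2.65 and 8.91 RPKM against 42.7 and 39.8 RPKM (7.14-fold, −2.80 ± 0.51, adjusted p = 0.0178). The 3 genes were lower in both flooded libraries than in either unflooded one.

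Auxin genes were at the background, with 28 higher and 29 lower of 123, and the 3 named by the size of their difference were all lower. The AIR12 matches Glyma.16G084300 (5.93 and 9.74 RPKM against 84.6 and 119 RPKM) and Glyma.03G088900 (3.63 and 6.37 RPKM against 56.1 and 73.2 RPKM) fell by 3.55 and 3.47 on the log2 scale, with adjusted p of 0.00452 and 0.00439. The GH3 gene Glyma.01G190600, whose enzyme family conjugates auxin to amino acids, was at 2.79 and 1.88 RPKM against 35.3 and 32.3 RPKM (14.5-fold, −3.39 ± 0.18, adjusted p = 0.00282). Phenylpropanoid and flavonoid genes gave 5 higher, 9 lower and 36 not called of 50. Cinnamate-4-hydroxylase, an early step, was higher in Glyma.10G275600, at 16.1 and 13 RPKM against 0.224 and 0.627 RPKM (34.2-fold, 3.45 ± 0.20, adjusted p = 0.00299), and in Glyma.20G114200, at 43.7 and 34.9 RPKM against 2.6 and 5.67 RPKM (9.50-fold, 3.04 ± 0.36, adjusted p = 0.00708). The next enzyme's gene, 4-coumarate:CoA ligase 3, Glyma.01G232400, was lower, at 2.48 and 3.4 RPKM against 22 and 18.1 RPKM (−2.41 ± 0.18, adjusted p = 0.0036), and its call was lost in the fit over all libraries, as well as with the tag (−3.49, adjusted p = 0.183). Clock genes gave 2 higher and 0 lower of 17, and both higher ones were glycine-rich RNA-binding proteins under clock control, Glyma.12G043000 (119 and 110 RPKM against 34.8 and 39.4 RPKM, 1.61 ± 0.16, adjusted p = 0.00521) and Glyma.11G117300 (103 and 160 RPKM against 47.6 and 59.6 RPKM, 1.26 ± 0.29, adjusted p = 0.0287).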

How the data were processed

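The authors deposited RPKM values per transcript model (reads scaled to cDNA length and library alignments) for 38 libraries. Reads were mapped with Bowtie, per the submitters' processing notes. The version and settings of Bowtie and the genome build were not given in the sources used here. Libraries were made with TruSeq or stranded TruSeq kits, per the labels' protocols, which do not say which library used which. The deposited RPKM values gave whole reads within 0.01 for 100% of values. The 4 columns of values that no label describes were left out, and the 8 libraries of the separate hilum table were not used. Each of 56044 genes was represented by its longest cDNA model. Names come from the table's descriptions, which 44491 genes (79.4%) had. The supplied annotation shared no gene identifiers with the table, so no sequence or coordinate is given.

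RPKM was rescaled by median ratio and tested as log2(RPKM + 1) with limma 3.58.1 (lmFit, eBayes with trend) in R 4.3.3 over genes with a mean of at least 1 RPKM in the 4 libraries, with Benjamini-Hochberg adjustment over all of them and a threshold of 0.05. The printed RPKM is as deposited. The fit was tested on simulated data. Named genes were called genes that had a description, averaged 5 RPKM or more in the higher side and did not overlap between sides (the 12 with the largest difference each way), and up to 3 called genes per list with the largest difference. Lists were matched by words in the descriptions. Members and lists were chosen with earlier results of these data known, and 24 families and the tag-adjusted fits were added after the values were seen. Further genes printed from a list were chosen after their values were seen. Limits for a level of 0 (3 reads per library) cover counting error only. Alternatives were other scalings, pseudocounts, filters, variance models, gene models, fits over all libraries and leaving out each library.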

Additional observations from a re-analysis of the deposited data

Results flagged for a closer look

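In 15 of 2283 list genes examined, the 12 h and 24 h roots lay on opposite sides of the unflooded mean by at least 1 log2 unit each, always with 12 h below and 24 h above. With 1 library per time these differences were not tested, and no value here bears on a cause. The values are 12 h minus 24 h in log2 units. The ACC synthase matches, which make the precursor of ethylene, gave −3.12 for Glyma.05G211700 (4.8 RPKM at 12 h, 49.4 at 24 h, 20.8 in W54 and 21.6 in W55) and −3.04 for Glyma.08G018000 (5.34, 51.4, 15.5 and 19.1 RPKM). The plasma membrane aquaporin Glyma.11G228000 gave −3.63 (19.2, 250, 48.4 and 43.5 RPKM). Xyloglucan enzymes, which cut and rejoin wall polymers, gave −2.72 for Glyma.13G094900, −3.22 for Glyma.17G065000 and −3.30 for Glyma.17G065200. The other 9 genes were chalcone synthase copies on chromosome 8, near-identical genes that may share reads. They gave −2.66 for Glyma.08G109200, −2.58 for Glyma.08G109300, −2.54 for Glyma.08G109400, −2.74 for Glyma.08G109500, −2.76 for Glyma.08G110300, −2.68 for Glyma.08G110400, −2.67 for Glyma.08G110500, −2.65 for Glyma.08G110700 and −2.78 for Glyma.08G110900. Their identifiers run on both sides of Glyma.08G109700, which read 4.1 RPKM in W54 and 0.0273 RPKM in W55, the deletion line. The unflooded mean includes W55, and the part of the deletion in that mean was not tested.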

How the results depend on the processing

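The comparison gave 14549 calls, 7394 higher and 7155 lower. A minimum mean of 5 RPKM left 6638 calls (3462 higher, 3176 lower), which follows from testing fewer genes, and the tag-adjusted fit left 8456 (3981 higher, 4475 lower), for which the cause was not tested. Leaving out each library in turn gave 908 to 15163 calls, 365 to 7643 higher and 543 to 7520 lower. The lowest counts were without W54 (908) and without W55 (1518), where the lone unflooded library is assumed to vary like the flooded pair. All 83 named genes were called; without W54 34 of them and without W55 21 missed the threshold with their direction kept. The 1 named gene that reversed was the peroxidase Glyma.04G099500, at −1.29 in the tag-adjusted fit, and 77 of 83 were called in the same direction there. A median ratio over genes of at least 10 RPKM moved the share of calls that were higher from 50.8% to 45.7%. No paired analysis was possible because the labels number no replicates across the sides, and the numbers used here follow the order of the samples. The depth of 175.1 M to 247.7 M alignments sets the limit of 3 reads in a 1 kb model at 0.0171 RPKM or less in these libraries.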

Other observations

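Sugar export carriers and detoxifying enzymes, described nowhere above and listed after their values were seen, also differed between the sides. Of 16 tested nodulin MtN3 (SWEET) genes, whose Arabidopsis relatives carry sugars across membranes, 9 were higher in flooded roots, 0 lower and 7 not called (median 0.59), against 23.5% higher and 22.7% lower among all genes. Glyma.04G238100 read 49 and 99.7 RPKM at 12 h and 24 h and 5.91 and 8.96 RPKM in W54 and W55 (10.0-fold, log2 difference 3.10 ± 0.42, adjusted p = 0.00923), with the sides apart. Of 75 glutathione S-transferases 32 were higher, 7 lower and 36 not called (median 0.53). The tag-adjusted fit called 4 of the MtN3 genes higher and 0 lower, and 15 of the transferases higher and 6 lower. Of 90 AP2/ERF factors of the integrase-type description 15 were higher and 29 lower, and Glyma.13G112400 read 1.5 and 11.9 RPKM against 63 and 98.3 RPKM (−3.80 ± 0.87, adjusted p = 0.0291; tag-adjusted −3.90, adjusted p = 0.0603).

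The W55 line was checked against its deletion. Of 30411 genes with at least 1 RPKM in the W54 root, 2 read at most 5% of that in the W55 root. One, Glyma.08G109700, described as DNAJ-like 20 and lying by its identifier on the chromosome of the I locus, read 4.1 RPKM in W54 and 0.0273 RPKM in W55. The other, Glyma.13G188800, a receptor-like kinase match, read 5.11 and 0.0756 RPKM.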
